A study of Mus musculus with 24 samples.

Results

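Module M[7] is 1 of the coexpression modules into which the study sorted transcripts that changed over time after a sham heart surgery in mice, and 1 of those with higher levels at 24 h. Of its 137 transcripts, 8 with genes for well known myeloid markers and chemokines (Arg1, Chil3, Ccr2, Mrc1, Lcn2, Cxcr2, Cxcl3 and Cxcl5) were set aside, and the remaining 129 are described here, out of 63758 transcripts listed in the counts. The mRNA of left ventricular myocardium was sequenced in 24 male C57BL/6J mice aged 8 to 12 weeks, with 8 mice at each of 3 time points, 1 sample per mouse and no pooling. Every mouse was given pentobarbital and buprenorphine, was intubated and ventilated, and underwent a left thoracotomy in which a suture was passed around the left anterior descending coronary artery without being tied. The study also names removal of the epicardium as a part of the procedure. The suture was taken out at once in the 0 min group and after 45 min in the other groups. Hearts of the first 2 groups were collected at that point, whereas the chest of the 24 h group was closed and the heart was collected the next day. The 0 min mice had therefore also been anesthetized and operated on, and no mouse without surgery was included.

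Because the module was built from the counts of these same 24 mice, and its members were grouped by their pattern over time, the differences over time given below are descriptions of the members and are not evidence that they changed. The normalized count of a transcript is its CPM, its count relative to the library total after that total was scaled by edgeR's TMM factor. Where a time point is given by a row of 3 numbers, they are the lowest, the median and the highest of its 8 mice. Log2 fold changes are from edgeR's quasi-likelihood model at 24 h against 0 min, given in parentheses after a gene's values with their standard error (SE). Transcript lengths were not used, so that levels are compared between mice for 1 transcript and not between transcripts. As the samples were pieces of whole tissue, a larger number of cells of a type and more RNA per cell cannot be told apart.

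After tissue injury, neutrophils and then monocytes leave the blood and enter the heart, where monocytes become macrophages that take up debris through scavenger receptors and process the lipid they ingest. Acute phase proteins are secreted proteins, many of them protease inhibitors or metal carriers, whose genes respond to cytokines of the interleukin-6 family in the liver and in other tissues. The surface of the heart is covered by a mesothelium, the epicardium, whose cells make simple epithelial keratins and the enzymes of retinoic acid synthesis, and fibroblasts below it make the collagens and the proteases that remodel them.

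Total counts per sample ranged from 9887957 to 14091629, and 97 of the 129 members had enough counts to be tested. The 129 members together took 0.211 to 0.294% of the counts of a sample at 0 min, 0.155 to 0.389% at 45 min and 0.335 to 0.957% at 24 h. At least 1 count was found for 108 to 119 of them in a 0 min mouse, for 106 to 125 in a 45 min mouse and for 125 to 129 in a 24 h mouse. At 45 min, 4 libraries (replicates 1, 6, 7 and 8) had TMM factors of 0.717 to 0.798, below all others. With the library totals alone, the median log2 fold change of all 8940 tested transcripts moved from 0.00 to 0.19 at 24 h and from 0.01 to -0.12 at 45 min. The module was a mixture of genes: 48 members belonged to 3 lists of leukocyte genes (scavenger and sensing receptors, other surface proteins, and signalling or intracellular proteins), 9 were cytokines, chemokines or their receptors, and the other members were genes of secreted plasma proteins, matrix, epithelium, metabolism and protein synthesis.

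At 24 h against 0 min, 93 of the 97 tested members were higher at an adjusted p below 0.05 and 0 were lower, where 4.44% of the 8940 tested transcripts were higher and 3.24% lower. Since the module was defined by these samples, nothing is read from that difference. Over all tested transcripts 397 were higher and 290 lower, and with library totals in place of TMM factors 548 and 121. The 4 that did not pass were Zc3h12d, Stab1, Col1a2 and Rasa3. The median log2 fold change of the tested members was 1.33, against 0.00 for all tested transcripts, and the values ran from 0.34 for Cct2, a subunit of the cytosolic chaperonin, to 5.25 for Serpina3n, a secreted serine protease inhibitor. Every 24 h mouse was above every 0 min mouse for 37 of the 97 tested members and for 0.996% of all tested transcripts. With the untested members it was 44 of the 129. A share over all transcripts, tested or not, was not counted for this number or for those of the lists below. In the other members the groups overlapped, and the lowest mouse at 24 h was replicate 8 or replicate 1 for 110 of the 129 members.

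**Figure D1:**
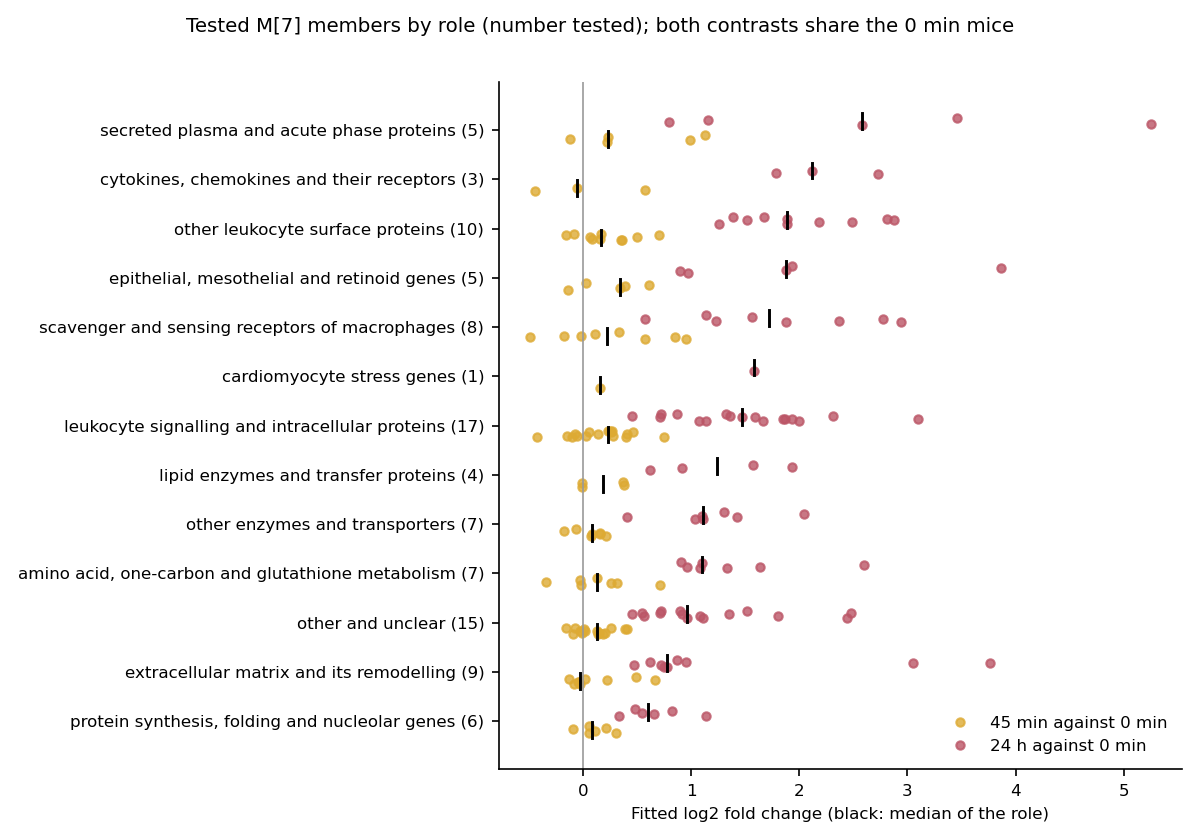
Fitted log2 fold change (x axis) of the 97 tested members in rows of functional lists (y axis), with 1 point per member at 24 h (red) and 1 at 45 min (yellow), both against 0 min, and a black line at the median. At 24 h the points run from 0.34 for Cct2 to 5.25 for Serpina3n, and the medians of the lists from 0.60 for protein synthesis to 2.58 for secreted plasma and acute phase proteins.

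Among the 10 scavenger and sensing receptors of macrophages, 7 of the 8 that were tested were higher at 24 h, with a median log2 fold change of 1.72. Msr1, the class A scavenger receptor that takes up modified lipoproteins, was at 0.196, 1.27 and 1.47 CPM at 0 min, 0.104, 1.64 and 2.3 CPM at 45 min and 3.16, 8.09 and 13.1 CPM at 24 h (log2 fold change 2.94 ± 0.39). All 8 mice at 24 h were above all mice at 0 min, and this was the only member of the list without overlap. Gpnmb, a membrane glycoprotein of lipid-laden macrophages, was at 0.293, 1.88 and 2.87 CPM at 0 min, 0.48, 1.63 and 2.73 CPM at 45 min and 2.35, 10.7 and 29.6 CPM at 24 h (2.77 ± 0.46). Tlr13, an endosomal receptor for bacterial ribosomal RNA, was at 1.37, 2.28 and 4.57 CPM at 0 min, 2.92, 4.52 and 7.33 CPM at 45 min and 4.45, 12.4 and 23.9 CPM at 24 h (2.37 ± 0.32). For both, 7 of the 8 mice at 24 h were above the highest mouse at 0 min and replicate 8 fell among the 0 min mice. The receptor for IgG Fcgr4 (1.88), the sialic acid binding receptor Siglec1 (1.57), the Toll-like protein Cd180 (1.23) and the lectin Clec4a1 (1.14) were also higher in the edgeR model. Stab1, a scavenger receptor of macrophages and sinusoidal endothelium, was at 24.9, 35.7 and 50.9 CPM at 0 min, 21.9, 38.5 and 47.5 CPM at 45 min and 32.3, 48.7 and 88 CPM at 24 h, and its log2 fold change of 0.58 ± 0.21 did not pass the threshold. Cd5l, a protein secreted by tissue macrophages, had too few counts to be tested, with medians of 0 CPM at both early time points and values of 0, 2.02 and 5.38 CPM at 24 h. Replicate 1 at 24 h was at 0 CPM for Cd5l and replicate 8 had 1 count, whereas replicate 7 had 92 counts.

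The list of other leukocyte surface proteins held 16 members, of which all 10 that were tested were higher at 24 h (median log2 fold change 1.88). Emb (embigin), an immunoglobulin family protein that escorts lactate transporters to the membrane, was at 0.665, 0.79 and 1.76 CPM at 0 min, 0.455, 1.41 and 2.73 CPM at 45 min and 2.61, 7.19 and 12.3 CPM at 24 h (2.88 ± 0.34). Ms4a6d, a tetraspan protein of monocytes and macrophages, was at 1.46, 1.87 and 3.91 CPM at 0 min, 1.47, 3.73 and 6.3 CPM at 45 min and 3.72, 15.8 and 28.5 CPM at 24 h (2.81 ± 0.34). The integrin chain Itgax (CD11c), found on dendritic cells and on some macrophages, was at 0.391, 0.662 and 0.997 CPM at 0 min, 0.208, 0.797 and 1.02 CPM at 45 min and 1.09, 3.14 and 12 CPM at 24 h (2.49 ± 0.41). Emb and Itgax did not overlap between 0 min and 24 h, and the highest Itgax value, in replicate 3 at 24 h, lay far above the next at 5.2 CPM. Cd53, a tetraspanin found on nearly all leukocytes, was at 4.39, 6.45 and 8.32 CPM at 0 min, 4.55, 7.26 and 8.79 CPM at 45 min and 9.34, 18.8 and 32.9 CPM at 24 h, again without overlap. Cd24a, a glycoprotein of granulocytes and lymphocytes, ranged from 2.15 to 3.27 CPM at 0 min and 5.1 to 23.2 CPM at 24 h (2.19 ± 0.32). Cd48, a ligand of the receptor CD244, had the smallest log2 fold change of the list (1.26 ± 0.30). The sum over the 16 members had a lowest, median and highest value of 16.6, 20.4 and 24.7 CPM at 0 min, 16.2, 22.7 and 31.5 CPM at 45 min and 34, 80.4 and 149 CPM at 24 h. Each 24 h mouse was thus above each 0 min mouse in the sum, although only 6 of the 16 members were free of overlap by themselves.

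Of the 22 leukocyte signalling and intracellular proteins, 15 of 17 tested members were higher at 24 h (median 1.47). Plac8, a small cysteine-rich protein of myeloid and lymphoid cells, had the widest spread of the tested members in this list, with 0, 0.276 and 1.66 CPM at 0 min, 0.142, 0.322 and 0.852 CPM at 45 min and 0.162, 2.92 and 11.5 CPM at 24 h (3.1 ± 0.61). Replicate 8 at 24 h lay among the 0 min mice for Plac8, and 6 of the 8 mice were above all of them. Mpeg1, which codes for the pore-forming protein perforin-2 of macrophages, was at 6.13, 8.14 and 9.76 CPM at 0 min, 6.9, 8.76 and 18.7 CPM at 45 min and 14.4, 25 and 50.9 CPM at 24 h (1.85 ± 0.25) and did not overlap. Pik3r5, the regulatory subunit of the phosphoinositide 3-kinase of leukocytes, was at 0.574, 1.04 and 1.57 CPM at 0 min, 0.198, 1.44 and 2.7 CPM at 45 min and 1.38, 4.53 and 9.31 CPM at 24 h (2.32 ± 0.41). Bcl2a1b, 1 of several near-identical genes for an inhibitor of apoptosis, was at 0.744, 1.62 and 4.3 CPM at 24 h (2.0 ± 0.45), a value that could include reads from its copies. Ctsc, the protease that activates the serine proteases of neutrophil granules, changed less, with 37.7, 42.2 and 47.4 CPM at 0 min, 34.2, 37.7 and 59.9 CPM at 45 min and 52.9, 65.2 and 90.6 CPM at 24 h (0.72 ± 0.13), but its groups did not overlap at 0 min and 24 h. Rasa3, a GTPase activating protein of Ras, and Zc3h12d, a relative of the RNase regnase-1, did not pass the threshold, with log2 fold changes of 0.46 ± 0.16 and 1.14 ± 0.38. Irg1 (Acod1), the enzyme that makes itaconate in activated macrophages, was not tested and reached 0.0809, 1.16 and 8.74 CPM at 24 h, with 122 counts in replicate 3 and 1 count in replicate 8.

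The 48 members of these 3 lists summed to 155, 175 and 198 CPM at 0 min, 154, 189 and 257 CPM at 45 min and 206, 379 and 673 CPM at 24 h. Their mean was 2.39-fold higher at 24 h than at 0 min, and every mouse at 24 h lay above every mouse at 0 min, the closest being replicate 8. Ctsc and Stab1 were the largest parts of this sum. Ctsc ranged from 37.7 to 47.4 CPM at 0 min and from 52.9 to 90.6 CPM at 24 h. Stab1, which did not pass the threshold, ranged from 24.9 to 50.9 CPM and from 32.3 to 88 CPM.

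RefSeq promoters of GRCm38.p6, from 250 bases before to 50 bases after the start of transcription, were matched by symbol for 91 of the 129 members (70.5%). As this is below 80%, a check of promoter letters over the members is void, and the counts that follow are descriptions. The letters GAGGAAGT, searched on both strands and typical of sites for PU.1, a transcription factor that myeloid cells need to develop, were in the promoters of 12 of the 91 members and of 3.69% of 27025 genes. These 12 were among the 43 matched members of the 4 immune lists, and 0 of the other 48 matched members had the letters. For 7 of the 12 the letters stood before the start, and these are shown. In the bases before the start alone, the letters were in 7 of the 91 members and in 2.79% of all genes. The holders with a known function differ in it: an IgG receptor (Fcgr4), a lysosomal protease (Ctsc), a lipoprotein receptor (Apobr), an apoptosis inhibitor (Bcl2a1b) and a small GTPase of lysosome-related organelles (Rab32). C920009B18Rik and B430306N03Rik are uncharacterized, although they were placed in a leukocyte list. These stretches were chosen after the values had been seen. In all, 7 sets of letters were searched, each on both strands: GGANTTTCC of NF-kB was in 2 of the 91 promoters (1.45% of all genes), TTGCNNAA or TTGCNNNAA of C/EBP in 15 (18.4%), TGACNNNGC of the antioxidant response element in 16 (14.0%), TTCCNGGAA of STAT factors in 0 (1.35%), and those of AP-1 and ATF4 are given further on. Each stretch has 30 bases and is written 5′ to 3′ on the strand of its gene, with the letters searched, or their reverse complement, in capitals.
Fcgr4, chr1:171018891-171018920, plus strand: taaggctatttACTTCCTCtcttctagtca
Ctsc, chr7:88277923-88277952, plus strand: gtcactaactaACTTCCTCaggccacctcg
Apobr, chr7:126584914-126584943, plus strand: agtcaggggaaGAGGAAGTgtcttgggtgc
Bcl2a1b, chr9:89199114-89199143, plus strand: cagaagaggaaGAGGAAGTggtgtgttgct
Rab32, chr10:10558232-10558261, minus strand: tagccagggaaGAGGAAGTgccgggaccag
C920009B18Rik, chr10:22306564-22306593, plus strand: ggagaagaaaaGAGGAAGTgagggagagga
B430306N03Rik, chr17:48316079-48316108, plus strand: tttaagctaaaGAGGAAGTggcggaactgg

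The 9 cytokines, chemokines and their receptors were mostly of low abundance, and only 3 were tested, all of them higher at 24 h. Il17ra, the receptor chain for interleukin-17, was at 3.16, 3.69 and 4.79 CPM at 0 min, 2.5, 5.98 and 9.0 CPM at 45 min and 6.57, 13.5 and 19.3 CPM at 24 h (1.79 ± 0.26) and did not overlap between 0 min and 24 h. Ppbp, the precursor of platelet and neutrophil chemokines, was at 0.319, 0.613 and 5.29 CPM at 0 min, 0.112, 0.838 and 1.76 CPM at 45 min and 1.88, 8.18 and 16 CPM at 24 h (2.73 ± 0.53). The overlap in Ppbp came from replicate 6 at 0 min, whose 5.29 CPM stood apart from the next value of 1.27 CPM. Of the 6 that could not be tested, Osm, Csf2rb2, Tnfsf14, Cxcl13 and Flt3 are described with the nearly absent members, and Ackr1, the atypical chemokine receptor of venular endothelium and red cells, ranged from 0 to 0.587 CPM at 0 min and 0.243 to 1.85 CPM at 24 h.

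Secreted plasma and acute phase proteins had the largest median log2 fold change of the lists (2.58), and all 5 tested members were higher at 24 h. This median is the value of 2210407C18Rik, an uncharacterized gene. Serpina3n, a mouse counterpart of alpha-1-antichymotrypsin and an inhibitor of serine proteases, was at 4.98, 6.23 and 33 CPM at 0 min, 9.92, 23.8 and 29.6 CPM at 45 min and 176, 438 and 616 CPM at 24 h (5.25 ± 0.40). Replicate 5 at 0 min, with 33 CPM, stood apart from the next 0 min value of 16.1 CPM, and the lowest mouse at 24 h was still far above it. Its neighbour on chromosome 12, Serpina3i, which lies 137 kb away and is a close relative with which reads could be shared, was at 0, 0.211 and 0.415 CPM at 0 min, 0, 0.446 and 1.04 CPM at 45 min and 0.971, 2.65 and 3.28 CPM at 24 h (3.46 ± 0.49). Cp (ceruloplasmin), the copper-carrying ferroxidase of plasma, was at 7.37, 9.97 and 13.4 CPM at 0 min, 9.07, 12 and 16.5 CPM at 45 min and 16.8, 23.5 and 31.7 CPM at 24 h (1.16 ± 0.16). These 3 genes were the members of the list without overlap. Masp1, a protease of the lectin pathway of complement, had the smallest change of the list (0.8 ± 0.15), with 2.2 to 4.25 CPM at 0 min and 4.01 to 6.15 CPM at 24 h. The uncharacterized 2210407C18Rik was at 2.74, 4.59 and 9.14 CPM at 0 min, 3.37, 5.75 and 10.2 CPM at 45 min and 8.01, 22.6 and 64.7 CPM at 24 h (2.58 ± 0.35). F7, coagulation factor VII, was not tested, and its counts ranged from 0 to 4 at 0 min and from 1 to 83 at 24 h. The sum of the 6 members was 21.3, 26.4 and 51.3 CPM at 0 min, 27.7, 45.6 and 52.6 CPM at 45 min and 217, 510.2 and 718 CPM at 24 h, and its mean was 16.3-fold higher at 24 h than at 0 min, most of it from Serpina3n.

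**Figure D2:**
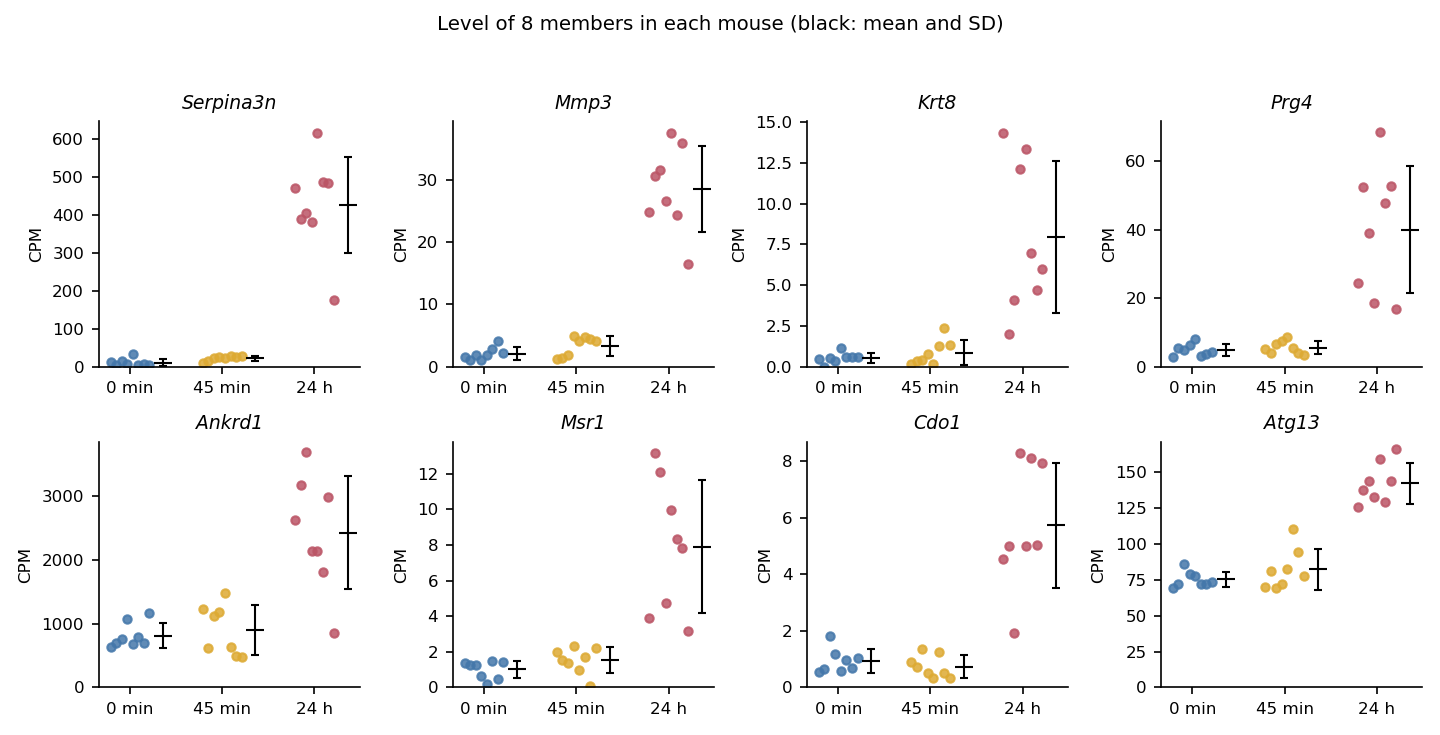
Normalized counts (CPM, linear axis from 0) of 8 members in each of the 24 mice, with 1 panel per gene, the 3 time points on the x axis, 1 point per mouse and the mean with its SD in black. Serpina3n, Mmp3, Prg4 and Atg13 have all 24 h mice above both earlier time points, whereas the lowest 24 h mouse for Ankrd1, at 855 CPM, lies among those of 0 min.

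The 12 genes of extracellular matrix and its remodelling split by size of change. Mmp3, the protease stromelysin-1, was at 1.08, 1.94 and 4.2 CPM at 0 min, 1.19, 4.16 and 4.94 CPM at 45 min and 16.5, 28.6 and 37.5 CPM at 24 h (3.76 ± 0.31). Prg4, which codes for the lubricating proteoglycan of joints and serosal surfaces, was at 2.71, 4.63 and 8.12 CPM at 0 min, 3.58, 5.32 and 8.59 CPM at 45 min and 16.8, 43.3 and 68.3 CPM at 24 h (3.05 ± 0.29). Both were free of overlap between 24 h and the earlier time points. Tnc (tenascin C), a matrix glycoprotein made during wound repair, was not tested because of its low counts, with 0 to 8 counts per mouse at 0 min and 6 to 208 at 24 h, where replicates 2 and 3 held 130 and 208. The fibrillar collagens had smaller changes. Col3a1 was at 254, 345 and 515 CPM at 0 min, 239, 348 and 428 CPM at 45 min and 216, 688 and 903 CPM at 24 h (0.75 ± 0.22), with replicate 6 at 24 h below all mice of 0 min. Col1a2 was at 148, 166 and 189 CPM at 0 min, 138, 164 and 187 CPM at 45 min and 149, 230.5 and 326 CPM at 24 h (0.47 ± 0.16), which did not pass the threshold. Col5a2, which lies 24.6 kb from Col3a1 on chromosome 1, had a log2 fold change of 0.72 ± 0.19, and the fibril-associated Col12a1 one of 0.95 ± 0.30. Mmp14, a membrane-bound protease that activates other metalloproteases, had 29.1 to 48.8 CPM at 0 min and 53.5 to 85.7 CPM at 24 h (0.78 ± 0.14) without overlap. The endocytic receptor Lrp1 (0.62) and the podosome scaffold Sh3pxd2b (0.88) were also higher in the model.

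Outside the leukocyte lists, promoter stretches are shown for Mmp3 and for Sprr1a, a cornified envelope protein described below, as 2 members with large changes whose promoters held the letters TGANTCA of AP-1, a dimer of Fos and Jun proteins. The letters, which read alike on both strands apart from the free base, were found in the promoters of 14 of the 91 matched members and of 8.97% of all genes. The Sprr1a stretches follow each other in 1 promoter, and the AP-1 letters of the first overlap a match to TGACNNNGC on the other strand.
Mmp3, chr9:7445765-7445794, plus strand: ggaagcaattaTGAGTCAgttttcgggtga
Sprr1a, chr3:92486009-92486038, minus strand: ataactaaagcTGAGTCAgagggtgaacta
Sprr1a, chr3:92485979-92486008, minus strand: ggggaggagggTGAGTCAtaggtgactggt

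The 7 epithelial, mesothelial and retinoid genes had 6 members without overlap between 0 min and 24 h. The part of the removal of the epicardium in their values was not tested. Krt8, a keratin of simple epithelia and mesothelium, was at 0, 0.562 and 1.17 CPM at 0 min, 0.164, 0.583 and 2.4 CPM at 45 min and 2.03, 6.47 and 14.3 CPM at 24 h (3.87 ± 0.51). Krt80, a keratin of differentiating epithelia, was at 0.191, 1.49 and 2.93 CPM at 0 min, 0.783, 2.07 and 3.92 CPM at 45 min and 2.97, 6.18 and 9.11 CPM at 24 h (1.88 ± 0.34). Aldh1a2, the dehydrogenase that makes retinoic acid and marks the epicardium, was at 5.29, 7.37 and 9.19 CPM at 0 min, 3.17, 6.82 and 12.5 CPM at 45 min and 12.5, 27.2 and 55.7 CPM at 24 h (1.94 ± 0.27). All 3 had every 24 h mouse above every 0 min mouse, but they did not share an order of mice: Krt8 was highest in replicate 1 and lowest in replicate 2, which was high for most other members. Rdh10, which oxidizes retinol in the preceding step, was at 8.56, 12.1 and 16 CPM at 24 h (0.97 ± 0.15). Osr1, a transcription factor of mesenchymal progenitors, had the smallest change of the list (0.9 ± 0.22) and overlapped in 3 of the 8 mice.

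Cardiomyocyte stress genes were represented by Ankrd1 and Sprr1a. Ankrd1, a titin-binding ankyrin repeat protein of cardiomyocytes, was at 634, 728 and 1174 CPM at 0 min, 470.0, 881 and 1488 CPM at 45 min and 855, 2383 and 3695 CPM at 24 h (1.58 ± 0.27). At 45 min its values already spread on both sides of the 0 min range, and at 24 h replicate 8 lay within that range. Sprr1a, a small proline-rich protein of cornified envelopes that is also made by stressed cardiomyocytes, had 6 counts in all 0 min mice together and between 5 and 267 counts per mouse at 24 h. For comparison, 14 other cardiomyocyte transcripts of the study's list summed to 16998 to 23902 CPM at 0 min and to 7113 to 12276 CPM at 24 h, a ratio of the means of 0.494. Most of this sum came from Actc1, cardiac alpha-actin. Without Actc1 the other 13 were at 4941 to 5759 CPM at 0 min and at 3343 to 5358 CPM at 24 h, a ratio of 0.797 with overlap of the groups. Their part in the members' values was not tested.

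The 8 genes of amino acid, one-carbon and glutathione metabolism had 7 tested members, all higher at 24 h (median 1.11). Cdo1, the dioxygenase that commits cysteine to taurine and sulfate, was at 0.558, 0.819 and 1.83 CPM at 0 min, 0.327, 0.616 and 1.36 CPM at 45 min and 1.93, 5.03 and 8.3 CPM at 24 h (2.6 ± 0.32). Slc7a8, a carrier of large neutral amino acids, was at 3.48, 5.12 and 8.51 CPM at 0 min, 4.78, 6.21 and 8.76 CPM at 45 min and 4.86, 15.8 and 33.7 CPM at 24 h (1.64 ± 0.27). Gclm, the modifier subunit of the enzyme that limits glutathione synthesis, was at 15.4, 18.9 and 21.8 CPM at 0 min, 14.6, 18.5 and 21.5 CPM at 45 min and 26.9, 38 and 49.1 CPM at 24 h (1.11 ± 0.13). Cdo1 and Gclm were free of overlap, whereas Slc7a8 in replicate 8 fell within the 0 min mice. Mthfd2, an enzyme of mitochondrial folate metabolism, was at 1.86, 4.41 and 7.32 CPM at 24 h (1.33 ± 0.28), and Pycr1, Slc7a5 and Slc6a9, which serve proline synthesis, leucine uptake and glycine uptake, had log2 fold changes of 1.08, 0.97 and 0.91. Slc7a11, the cystine carrier that feeds glutathione synthesis, was not tested, with 0 to 6 counts per mouse at 0 min and 2 to 29 at 24 h. Its promoter is shown because it held the letters TGATGNAA (both strands), typical of sites for ATF4, an activator of amino acid genes, at 2 places, shown in windows that overlap. The ATF4 letters were in the promoters of 5 of the 91 matched members and of 4.51% of all genes.
Slc7a11, chr3:50443661-50443690, minus strand: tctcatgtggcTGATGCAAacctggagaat
Slc7a11, chr3:50443642-50443671, minus strand: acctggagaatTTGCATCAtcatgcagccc

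Lipid enzymes and transfer proteins numbered 6, with 4 of 4 tested members higher. Star, which carries cholesterol into mitochondria, was at 2.45, 4.29 and 5.07 CPM at 0 min, 2.57, 4.17 and 5.34 CPM at 45 min and 8.98, 12.7 and 29.1 CPM at 24 h (1.93 ± 0.23). Pla2g7, the enzyme that degrades platelet-activating factor, was at 0.823, 1.83 and 2.34 CPM at 0 min, 1.78, 2.13 and 2.81 CPM at 45 min and 3.64, 4.89 and 6.61 CPM at 24 h (1.57 ± 0.20). Neither overlapped between 0 min and 24 h. Alox15, the lipoxygenase of resident peritoneal macrophages and eosinophils, was not tested and had 0 to 9 counts at 0 min and 4 to 129 at 24 h. Soat2, an enzyme of cholesterol ester synthesis, had 0 to 5 and 7 to 35 counts. Cers6, a ceramide synthase, and Acaca, which makes malonyl-CoA, had log2 fold changes of 0.91 ± 0.25 and 0.62 ± 0.16.

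Among the 10 other enzymes and transporters, the 7 tested members were higher, led by the carbonic anhydrase Car13 (2.05 ± 0.38), the glucuronosyltransferase Ugt1a7c (1.42 ± 0.29), whose exons are shared with other genes of its cluster, and the aldo-keto reductase Akr1b8 (1.3 ± 0.25). B4galt5, a galactosyltransferase of lactosylceramide synthesis, was at 14.7, 18 and 21.4 CPM at 0 min, 15.6, 20.8 and 21.9 CPM at 45 min and 26.5, 36.6 and 58.7 CPM at 24 h (1.1 ± 0.15) without overlap. Protein synthesis, folding and nucleolar genes had the smallest median of the lists (0.60), and all 6 were higher. Pabpc1, the cytoplasmic poly(A) binding protein, was at 45.1, 58 and 71.6 CPM at 0 min, 52.5, 62.3 and 87.1 CPM at 45 min and 73.1, 89.2 and 125 CPM at 24 h (0.66 ± 0.13), and Rrp12, a ribosome export factor, had a log2 fold change of 0.82 ± 0.15. Cct2 was at 132, 147 and 169.7 CPM at 0 min, 128, 153 and 181 CPM at 45 min and 161, 187 and 220.1 CPM at 24 h (0.34 ± 0.10), with 2 of the 8 mice at 24 h inside the 0 min range.

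The last list held 15 genes of other or unclear function, all tested and all higher. Atg13, a subunit of the kinase complex that starts autophagy, was at 69.4, 72.8 and 86.4 CPM at 0 min, 69.2, 79.5 and 111 CPM at 45 min and 126, 141 and 166 CPM at 24 h (0.92 ± 0.11). Its groups did not overlap, and the coefficient of variation between the 24 h mice was 10.1%, against a median of 46.4% over the 129 members. Syt12, a synaptotagmin, was at 1.56, 2.18 and 5.58 CPM at 0 min, 2.08, 2.83 and 3.87 CPM at 45 min and 8.09, 12.8 and 25.6 CPM at 24 h (2.44 ± 0.25). Gpr176, an orphan receptor of the circadian clock, was at 0, 0.308 and 0.489 CPM at 0 min, 0, 0.432 and 0.937 CPM at 45 min and 0.652, 1.4 and 3.65 CPM at 24 h (2.47 ± 0.52). The unannotated AK139611 had a log2 fold change of 1.8 ± 0.29, and the adhesion receptor Adgra2, which brain vessels need for Wnt signalling, had the smallest of the list (0.46 ± 0.14).

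**Figure D3:**
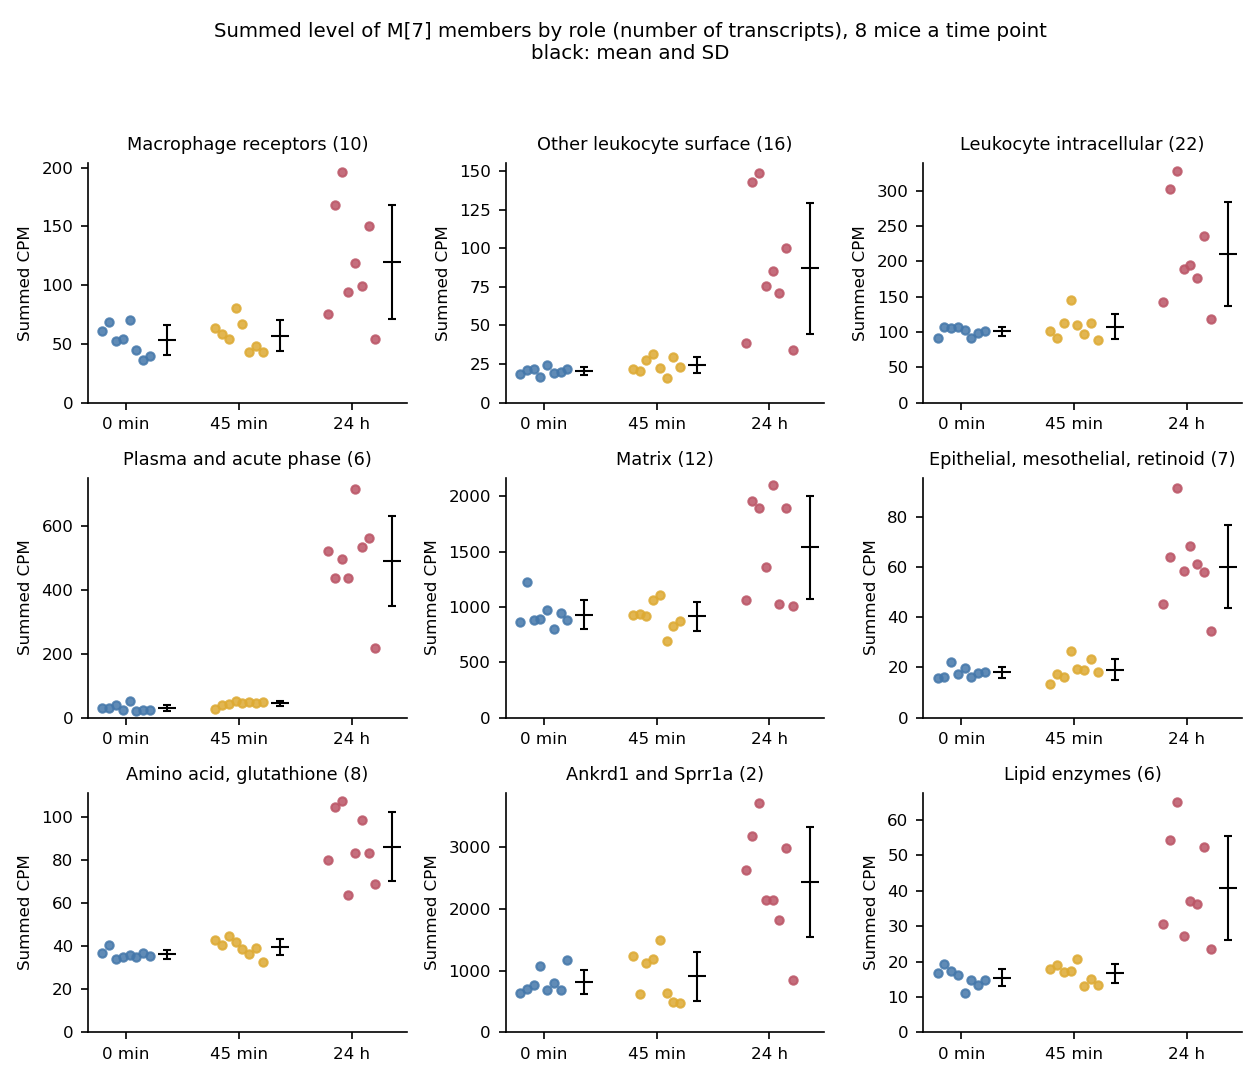
Summed normalized counts (CPM, linear axis from 0) of the members of 9 functional lists in the 24 mice, with 1 panel per list, the 3 time points on the x axis, 1 point per mouse and the mean with its SD in black. Secreted plasma and acute phase proteins go from a median of 26.4 CPM at 0 min to 510 CPM at 24 h. Matrix genes overlap, with 803 to 1222 CPM at 0 min and 1009 to 2099 CPM at 24 h.

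Nearly absent at 0 min, with at most 3 counts in each of the 8 libraries, were 15 members. Where they had counts at 0 min, the change is given as the ratio of the counts summed over 8 mice and scaled to the libraries, with its exact 95% interval, and where they had none, as a lower bound against 3 counts per library (0.271 CPM on average). The intervals cover counting error only. The bound takes 3 counts for each of the 8 libraries, although no count was seen in any of them. It is therefore far more cautious than the ratios and cannot be ranked with them. Dhrs9, a retinol dehydrogenase of epithelia and macrophages, had 0 counts in all 8 mice at 0 min and 104 at 24 h, at least 3.51-fold higher. Cdh1 (E-cadherin), the adhesion protein of epithelia, had 0 counts at 0 min and 85 at 24 h, at least 2.87-fold higher. The 24 h counts per mouse ran from 1 to 27 for Dhrs9 and from 3 to 26 for Cdh1, so that both were detected in every 24 h mouse. Sprr1a had 6 counts at 0 min and 585 at 24 h, a ratio of 80.7 (36.8 to 221). Steap1 had 1 and 85 counts, a ratio of 70.3 (12.3 to 2811). The intervals were wide because so few counts were seen at 0 min.

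The leukocyte genes among the nearly absent members were Marco, a scavenger receptor for bacteria and particles, with 3 counts at 0 min and 104 at 24 h (ratio 28.7, 9.55 to 141), the oncostatin M gene Osm, a cytokine of the interleukin-6 family, with 11 and 128 (9.63, 5.2 to 19.8), and the B cell chemokine Cxcl13, with 3 and 85 (23.4, 7.76 to 116). Marco and Cxcl13 had no count in replicate 8 at 24 h and Marco had 1 in replicate 1, whereas Cxcl13 had 13 counts in replicate 1 and 33 in replicate 4. Tnfsf14, a ligand of the tumor necrosis factor family, had 7 and 69 counts (8.16, 3.75 to 21). Bst1, an ectoenzyme of myeloid and stromal cells, had 10 and 76 counts (6.29, 3.24 to 13.6). Flt3, a receptor of progenitors and dendritic cells, had 13 and 64 counts (4.07, 2.22 to 8.06). At 24 h all 3 were detected in each mouse, with 1 to 3 counts in replicate 8. Csf2rb2, the interleukin-3 receptor chain, had 4 and 54 counts (11.2, 4.12 to 42.5), Card14, an adaptor of NF-kB signalling best known in skin, had 7 and 56 (6.62, 3.01 to 17.2), Entpd3, an ectonucleotidase, had 2 and 64 (26.5, 7.04 to 223), and the uncharacterized B430306N03Rik and Gm5150 had 2 and 66 (27.3, 7.27 to 230.2) and 3 and 61 (16.8, 5.49 to 83.8). Of the nearly absent members, 5 were in the list of cytokines, chemokines and their receptors, 3 in that of other surface proteins and 2 in the epithelial list. Modules M[5], M[6], M[8] and M[9], which also were higher at 24 h in the median, have 117, 56, 62 and 132 transcripts. Of these, 4, 0, 0 and 1 were nearly absent by the same limit, and 16, 0, 3 and 6 had too few counts to be tested, against 32 of the 129 members. Only 27661 of the 63758 listed transcripts had a count in any mouse. The share of nearly absent transcripts over all transcripts was not counted, so that nothing is read from these numbers.

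**Figure D4:**
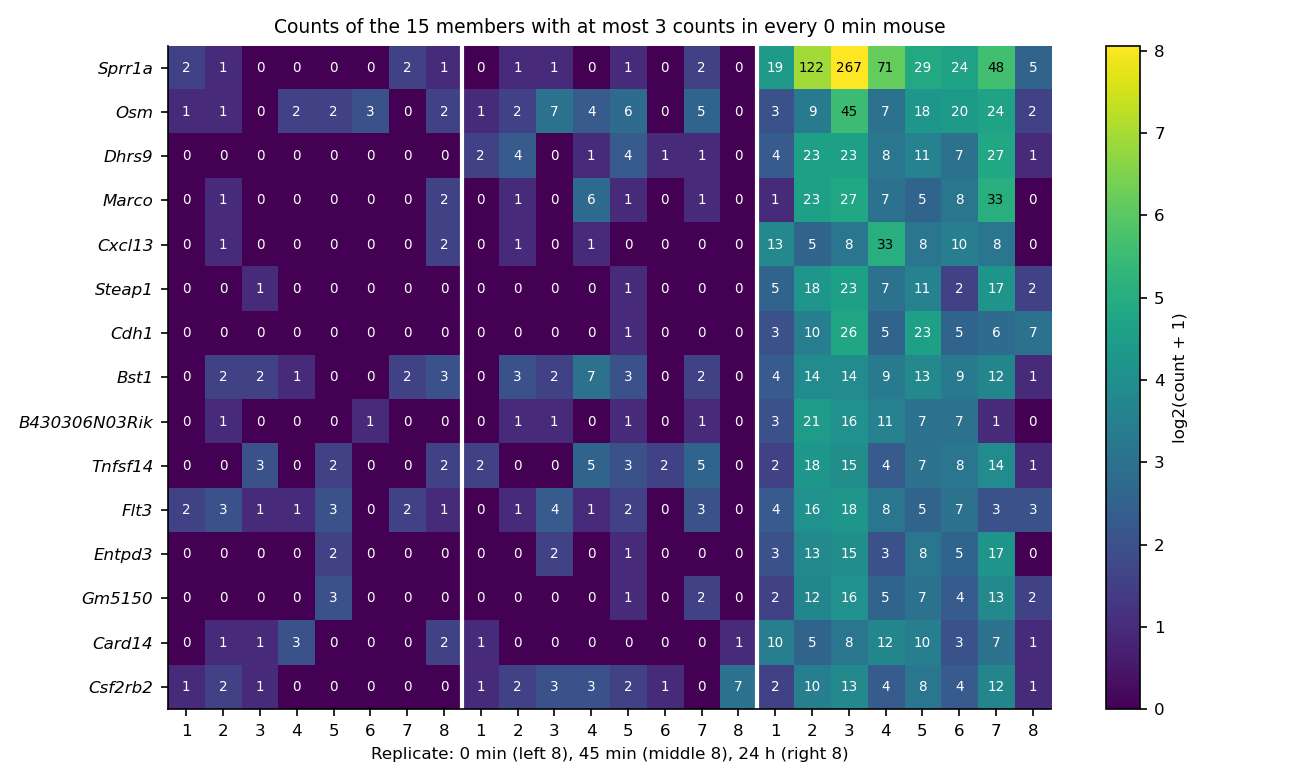
Deposited counts of the 15 members with at most 3 counts in each 0 min library, with 1 row per gene and 1 column per mouse, colored by log2 of the count with 1 added and with the count printed in each cell. At 24 h Sprr1a reaches 267 counts in 1 mouse, while Marco, Cxcl13, Entpd3 and B430306N03Rik are at 0 in at least 1 mouse.

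At 45 min against 0 min, 0 of the 97 tested members passed the threshold with edgeR, DESeq2 or limma-voom, where 0.481% of all tested transcripts were higher and 0.246% lower with edgeR. At an unadjusted p below 0.05, 8 members were higher and 0 lower in the edgeR model, where 2.94% of all tested transcripts were higher and 2.84% lower, and each of these 8 is named with its log2 fold change: Serpina3n (0.99), Fcgr4 (0.95), Tlr13 (0.86), Mthfd2 (0.71), Ms4a6d (0.71), Mmp3 (0.66), Il17ra (0.57) and Sh3pxd2b (0.49). The median log2 fold change of the tested members was 0.14 at 45 min, against 0.01 for all tested transcripts. Modules M[5], M[6], M[8] and M[9] had medians of 0.24, 0.23, -0.07 and -0.07 at 45 min and of 0.94, 1.15, 0.53 and 0.62 at 24 h, where both comparisons share the 0 min mice. At 24 h against 45 min, 81 of the 97 tested members were higher and 0 lower, where 4.59% of all tested transcripts were higher and 4.51% lower, and the median was 1.13. With library totals in place of TMM factors the calls over all transcripts went from 410 higher and 403 lower to 1183 and 127.

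The mice of the 24 h group differed from each other in an order that most members shared. The highest value at 24 h was in replicate 3 for 65 members and in replicate 2 for 34, and the lowest was in replicate 8 for 81 and in replicate 1 for 29. The sum of the 48 leukocyte members ran from 206 CPM in replicate 8 to 673 CPM in replicate 3. Over the 8 mice at 24 h, this sum had a Pearson r of 0.973 (Spearman's rho 0.976) with that of 8 neutrophil transcripts of other modules, and an r of 0.896 without replicates 3 and 2, which lay farthest from the median. Protein synthesis members had an r of 0.956 (rho 0.952, and 0.929 without these replicates), lipid members 0.953 (0.929 and 0.873), epithelial members 0.853 (0.786 and 0.801) and matrix members 0.785 (0.810 and 0.795). Amino acid members, with an r of 0.759 (0.714), were at 0.314 without replicates 3 and 2, and this relation therefore rests on them. The sum of the acute phase members, most of it Serpina3n, stood apart with 0.271 (0.167, and 0.688 without these replicates). It was highest in replicate 5, and replicate 2, which was second for leukocyte members, was second lowest for it. Its members did not share this order. Serpina3n and 2210407C18Rik were highest in replicate 5. Cp was highest in replicate 7 (31.7 CPM), Masp1 in replicate 8 (6.15 CPM), Serpina3i in replicate 4 and F7 in replicate 3 (83 counts). The sums share their libraries, and the module was built from these mice, so that the values are descriptions. For comparison, the leukocyte sum had an r of -0.330 with the total count of the library (rho -0.167, and r 0.113 without replicates 3 and 2). With the TMM factor of the library the r was 0.461 (rho 0.548, and r 0.645 without these replicates). With the sum of the 14 cardiomyocyte transcripts it was -0.213 (rho -0.262, and r -0.473 without these replicates). With the 13 cardiomyocyte transcripts other than Actc1 the r was -0.742 (rho -0.738, and r -0.809 without these replicates). Without replicate 3 at 24 h 76 tested members were higher at 24 h, and without replicate 8 at 24 h 101 were, where the number of tested members also changes.

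**Figure D5:**
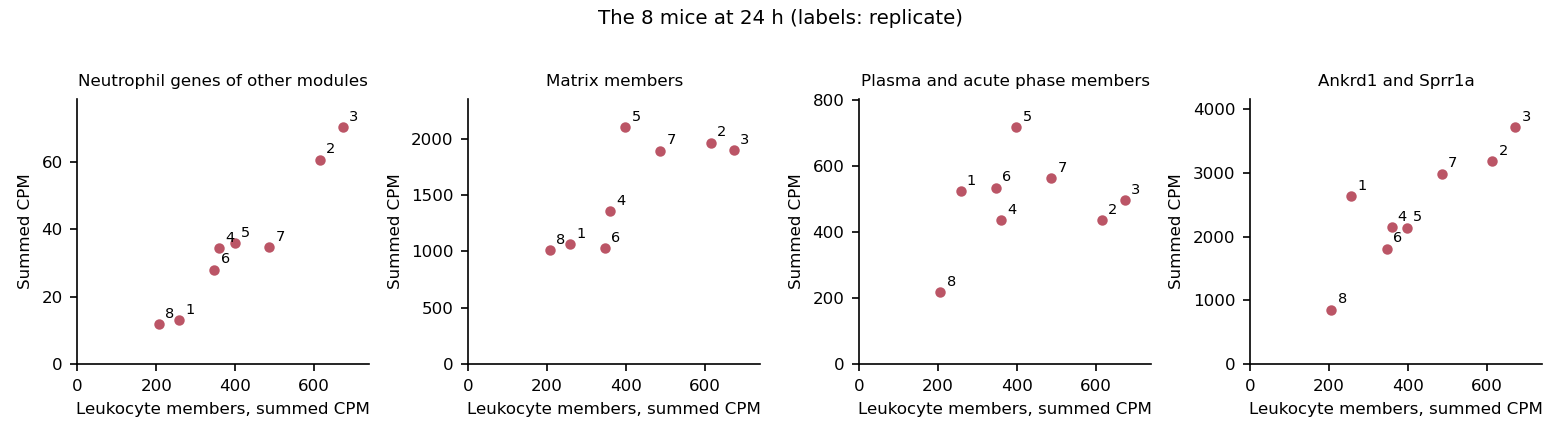
Summed normalized counts (CPM) of neutrophil transcripts of other modules, matrix members, plasma and acute phase members, and Ankrd1 with Sprr1a (y axes) against the 48 leukocyte members (x axes) in the 8 mice at 24 h, labelled by replicate. Replicates 3 and 2 lie farthest to the right, replicate 8 is lowest in the 4 panels, and replicate 5 is highest for the acute phase and matrix members.

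Other transcripts of the study's list of changed transcripts gave the setting of these values. That list was chosen on the same samples, so that the counts are no independent evidence. Of 30 tested leukocyte transcripts in other modules, 26 were higher at 24 h and 0 were lower, and of 6 neutrophil transcripts 5 were higher. Of 8 transcripts of resident macrophages and antigen presentation, 1 was higher (Lyve1, a hyaluronan receptor), 2 were lower (Cd74 and Retnla) and 5 did not pass the threshold, and their median log2 fold change was 0.57. Of 23 other matrix transcripts, which the study placed in another module or in none, 11 were higher and 8 lower, and of 6 epithelial transcripts 4 were higher (Krt7, Krt18, Upk1b and Cldn15) and 0 lower. The sum of the 8 epithelial transcripts outside the module, 5 of which the study placed in no module, had an r of -0.417 with that of the leukocyte members over the 8 mice, and of 0.0526 without replicates 3 and 2. Of 12 cardiomyocyte transcripts 7 were lower and 0 higher, and of 10 endothelial transcripts 4 were higher and 1 lower.

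How closely each member followed the others was described by its correlation with the module eigengene, the first principal component of the 129 members over the 24 mice, which held 72.6% of their variance. The median r was 0.853. B4galt5 (0.969), Cd53 (0.963), Mpeg1 (0.960), Steap1 (0.957) and Tnc (0.956) were closest, and Osr1 (0.666), Krt8 (0.688), Masp1 (0.692), Sorl1 (0.700), a sorting receptor, and Cdo1 (0.707) were farthest. Outside the module, the transcripts most like it were Msn of M[9] (0.926), Ctsz of M[6] (0.925) and C3ar1 of M[9] (0.919), which code for the cytoskeletal linker moesin, the lysosomal protease cathepsin Z and the receptor for complement C3a. In all, 227 transcripts of the study's list outside the module were above the lowest member, so that the border of the module is not sharp on this measure.

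For 4 members the study's list of changed transcripts also held another transcript of the same gene, and transcripts outside that list were not searched because their symbols were not known. Ahnak2, a giant scaffold protein, had a log2 fold change of 0.96 in this module and of 0.48 in the transcript placed in M[8]. The transcripts of Masp1 had 0.80 and 0.79, although 1 of them is in M[8]. The 128 members found by symbol in RefSeq lay on 20 chromosomes, and 5 pairs were within 200 kb of each other. In the GENCODE M21 annotation, exons of 21 members overlap those of a gene on the opposite strand and exons of 10 overlap a gene on the same strand. As the strand setting of the counting is not given in the sources used here, counts of Adgra2, Apobr, Bst1, Card14, Cd180, Cp, Emb, Gclm, Krt8, Krt80, Pla2g7, Prg4, Slc6a9, Sorl1, Stab1, Syt12, Tnc and Ugt1a7c could include reads of a gene on the opposite strand. Those of Ackr1, Bcl2a1b, Col3a1, Csf2rb2, Gclm, Gpr176 and Ugt1a7c could include reads of a gene on the same strand.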

How the data were processed

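According to the submitters' processing notes, reads were trimmed with cutadapt 1.9.1, mapped to mm10 with TopHat2 2.1.0 and Bowtie2 2.2.9 and counted with HTSeq 0.6.0, and the libraries were directional. The authors deposited raw counts per UCSC transcript, without normalization and without symbols, which were taken from the study's list of changed transcripts. The mode and strand setting of the counting are not given in the sources used here.

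In R 4.3.3, edgeR 4.0.16 kept 8940 transcripts (filterByExpr, minimum of 10 counts and 15 in total), scaled libraries by TMM and fitted its quasi-likelihood model, in which time was the single factor, to the 24 samples. P values were adjusted over all tested transcripts by the Benjamini-Hochberg method with a threshold of 0.05. DESeq2 1.42.0, limma-voom (limma 3.58.1), other scalings and filters, a replicate block and fits without each sample were the alternatives. The script was tested on simulated data. The study used more than 1 surgeon and several library pools, but the labels do not tie them to samples, so that they were not used and their part in any difference was not tested. Members, lists and tests were chosen with earlier results of these data known. Genes named in each list are those with the 3 largest changes, the smallest change and the highest mean at 24 h, the 5 largest rises, the nearly absent members and the 5 highest and lowest correlations with the eigengene, and others were named to describe a list after their values were seen. Values of a few members are not reported here. At totals of 9887957 to 14091629 counts, members with few counts have wide counting error. The blank line of the count table held 0 counts and was left out.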

Additional observations from a re-analysis of the deposited data

Results flagged for a closer look

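In 15 of 231 groups of 8 mice examined (lists and named members at each time point), 1 mouse stood apart from the other 7 by Dixon's test, where chance gives about 1 in 20 groups. Replicate 4 at 45 min was highest for the leukocyte members, with a sum of 257 CPM against 200.1 CPM in the next mouse, for leukocyte signalling and intracellular proteins, with 145 against 113 CPM, for Mpeg1, with 18.7 against 10.6 CPM, and for Ctsc, with 59.9 against 41.9 CPM. Replicate 5 at 0 min was highest for Serpina3n, with 33 against 16.1 CPM, for Syt12, with 5.58 against 2.57 CPM, and for Plac8, with 1.66 against 0.558 CPM. Replicate 6 at 0 min was highest for Ppbp, with 5.29 against 1.27 CPM, and for Masp1, with 4.25 against 3.16 CPM. Replicate 2 at 0 min had the highest sums of matrix members, with 1222 against 969 CPM, and of amino acid members, with 40.5 against 37.0 CPM. At 45 min, replicate 7 was lowest for Cd48, with 0.104 against 0.683 CPM, and replicate 6 was highest for Pabpc1, with 87.1 against 68.8 CPM. At 24 h, replicate 4 was highest for Cxcl13, with 2.85 against 0.941 CPM, and replicate 3 was highest for Itgax, with 12 against 5.2 CPM.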

How the results depend on the processing

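The 93 members higher at 24 h against 0 min became 71 of 73 tested with a stricter filter and 125 of 129 with DESeq2, and ranged from 76 (without 24 h replicate 3) to 101 (without 24 h replicate 8) when single mice were left out. The median log2 fold change ranged from 1.20 (limma-voom) to 1.54 over the alternatives that kept the same members, and from 1.09 to 1.39 without single mice. With the stricter filter it was 1.13, but over the 73 members that this filter kept. Against 45 min the count ranged from 62 to 109, and from 69 to 93 without single mice. With library totals in place of TMM factors, an alternative chosen after seeing the data, the median against 45 min was 1.46 in place of 1.13. The fold of the summed CPM at 24 h over 0 min was larger in every list of members. It was 1.61 in place of 1.41 for protein synthesis genes and 2.09 in place of 1.81 for other and unclear genes. For leukocyte members it was 2.79 in place of 2.39, for acute phase members 19.3 in place of 16.3, and for all members 2.70 in place of 2.33. Without 24 h replicate 4, the transcripts called over the whole table were 430 higher and 508 lower at 24 h against 0 min, and 568 and 1100 against 45 min. At 45 min against 0 min, 0 to 1 members were higher without single mice, the 1 being called without 0 min replicate 5. The 15 nearly absent members became 4 with a limit of 1 count and 36 with a limit of a mean below 0.5 CPM. Whether replicate numbers tie samples of different time points together was not settled. Of 24 same-numbered pairs, 13 had a correlation of deviations over 0.1, with a range from -0.541 to 0.583. In addition, 6 samples correlated best with their own number. Correlations of differently numbered pairs were not summarized for comparison. A fit with the replicate block gave 89, 0 and 78 members higher in the 3 comparisons, and Cct2 and Adgra2 lost their calls. Of 1568 values for 56 named members under alternatives, 0 changed direction, 87 lost and 5 gained a call. Among the 8 members that lost one were Col3a1, Cct2, Cers6, Adgra2, Sorl1, Col12a1 and Ercc6l. Depth limits the members with few counts most, of which 32 were not tested.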
